A study of Mus musculus with 18 samples.

Results

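The genes described here encode the nuclear subunits of the mitochondrial respiratory chain, measured in myelinating explant cultures of mouse dorsal root ganglia. They were chosen by symbol alone, as all genes of the RefSeq gene table whose symbols start with Ndufa, Ndufb, Ndufc, Ndufs, Ndufv, Sdha, Sdhb, Sdhc, Sdhd, Uqcr, Cox4i, Cox5, Cox6, Cox7 or Cox8, leaving out Ndufaf. The rule gave 85 genes, of which 72 were matched to a probe. These were 38 of complex I, 4 of complex II, 8 of complex III and 18 of complex IV, and 4 Sdhaf genes, which the letters of the rule also take in and which encode assembly factors of complex II rather than subunits. Of the 13 genes without a matched probe, 3 are protein coding (Ndufb1, Ndufb4b and Ndufb4c) and 10 are pseudogenes in that table. In all, 69 of the 72 were bright enough to be tested, among 22854 features tested, 14538 of them with a RefSeq symbol.

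Electrons from NADH enter the chain at complex I and those from succinate at complex II, pass through ubiquinone to complex III and cytochrome c, and reach oxygen at complex IV. Complexes I, III and IV pump protons, and ATP synthase uses the gradient. Each of these 3 complexes joins subunits encoded in mitochondrial DNA to the nuclear ones, and complex IV has subunits with isoforms that are known from particular tissues, such as muscle, lung and testis. In peripheral nerve, long sensory axons depend on mitochondria for ATP, and loss of respiratory chain function in Schwann cells is known to disturb myelin and axons. None of the 13 protein genes of mitochondrial DNA was matched to a probe, and they were not analysed here.

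Ganglia of C57BL/6J embryos at E13.5 were grown on matrigel for 12 days in growth medium before the experiment began. RNA was taken on day 0, before the myelination medium, on day 10 of the medium, when myelination had begun, and on day 22, when mature sheaths were plentiful. All groups thus share strain, embryonic age, matrix and the earlier culture, and differ in days of medium. Each day had 3 batches of ganglia, each batch from its own pool of embryos, with 2 one-colour arrays, so 6 arrays per day. No sample analysed here was cultured that long without the medium, so time and medium cannot be told apart. A culture holds sensory neurons, Schwann cells and other cells of the ganglion, and all 15 neuronal and all 10 Schwann cell markers were measured on each day. In such bulk RNA, fewer cells of a type and less RNA per cell cannot be told apart.

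A level below is the log2 intensity of a gene's brightest probe less the 75th percentile of that array, and levels of different probes are not set against each other. A change is a log2 difference ± its standard error from limma, fitted to the 3 batch values of each day, with adjusted p by Benjamini-Hochberg over all 22854 features and a threshold of 0.05. Between 54.8 and 61.5% of the spots of an array were flagged well above background, and precision is limited by how many arrays there were. The labels of the scanner files and the columns of the authors' value table put 12 of the 18 arrays in different batches of the same day. Each test was therefore run with the batches of the scanner files, here called the filed batches, from which changes and errors are given, and repeated with the batches of the value table, here called the tabulated batches. The consensus correlation of the arrays of a batch in limma was -0.02 with the filed batches and 0.36 with the tabulated ones. Arrays of a tabulated batch were thus the more alike, but which batches are right is not known. If the tabulated ones are, the errors given here may be too small. The words rose and fell are kept for genes that passed the threshold both ways.

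Several promoters are shown first, because the results turn on an isoform pair of complex IV and on genes that rose by day 22. Each runs from 250 bases before the transcript start to 50 after it, on the strand of the gene, from the RefSeq table of build GRCm38.p6. Capitals mark the motifs searched on both strands, GCATGCG, the core of the site of NRF1, and CCGGAAG, a site of ETS factors such as GABP, 2 factors known to bind promoters of respiratory chain genes. The motifs can share at most 1 base at their ends. The first pair is Cox7a1 (chr7:30183921-30184220, plus strand) and Cox7a2 (chr9:79759804-79760103, minus strand), the muscle isoform and the widespread isoform of the same subunit, which differed most in their change. The other 3 are the genes that rose by day 22 and hold a match: Ndufa6 (chr15:82354242-82354541, minus strand), Sdhaf3 (chr6:6955768-6956067, plus strand) and Uqcrh (chr4:116075021-116075320, minus strand).
Cox7a1: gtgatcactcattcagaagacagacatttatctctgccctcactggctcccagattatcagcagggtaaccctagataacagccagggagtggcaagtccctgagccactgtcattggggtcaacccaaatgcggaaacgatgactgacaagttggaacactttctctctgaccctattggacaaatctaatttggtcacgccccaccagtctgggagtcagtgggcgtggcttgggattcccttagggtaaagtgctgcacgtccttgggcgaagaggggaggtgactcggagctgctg
Cox7a2: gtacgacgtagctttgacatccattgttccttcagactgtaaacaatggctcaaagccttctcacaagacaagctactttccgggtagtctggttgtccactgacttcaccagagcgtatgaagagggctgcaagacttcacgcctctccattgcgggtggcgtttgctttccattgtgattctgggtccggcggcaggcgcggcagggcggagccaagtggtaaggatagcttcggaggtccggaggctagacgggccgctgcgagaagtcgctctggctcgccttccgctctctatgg
Ndufa6: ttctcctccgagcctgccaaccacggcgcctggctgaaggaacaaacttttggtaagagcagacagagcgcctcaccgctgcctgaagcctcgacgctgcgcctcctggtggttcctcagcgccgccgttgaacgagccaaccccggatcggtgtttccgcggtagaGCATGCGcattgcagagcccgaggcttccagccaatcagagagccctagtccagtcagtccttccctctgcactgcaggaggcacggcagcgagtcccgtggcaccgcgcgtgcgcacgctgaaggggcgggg
Sdhaf3: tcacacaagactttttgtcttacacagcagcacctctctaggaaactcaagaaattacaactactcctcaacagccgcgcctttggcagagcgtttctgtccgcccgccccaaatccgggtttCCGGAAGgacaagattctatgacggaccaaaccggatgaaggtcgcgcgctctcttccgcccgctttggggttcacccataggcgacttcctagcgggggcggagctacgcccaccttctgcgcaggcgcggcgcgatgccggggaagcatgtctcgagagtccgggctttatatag
Uqcrh: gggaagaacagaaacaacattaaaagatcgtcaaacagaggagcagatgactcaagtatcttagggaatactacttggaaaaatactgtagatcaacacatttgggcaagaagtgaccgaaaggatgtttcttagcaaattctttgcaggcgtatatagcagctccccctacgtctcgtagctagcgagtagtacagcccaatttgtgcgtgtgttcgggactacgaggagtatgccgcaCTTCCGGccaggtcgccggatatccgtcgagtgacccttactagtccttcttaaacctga

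Neither promoter of the isoform pair held a match to these letters. The match in Ndufa6 began 83 bases before the start, that in Sdhaf3 127 bases before it, and that in Uqcrh, on the other strand, 10 bases before it. Of the 58 genes of the rule with a promoter in the table, 7 (12.1%) held the NRF1 core, against 4.01% of the 27025 genes of the table. The ETS motif was found in 14 (24.1%) of them, against 9.93%. Among the 12 with a promoter that rose by day 22, 1 (8.33%) held the NRF1 core and 2 (16.7%) the ETS motif. A match describes letters in this window and is not a measured site.

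Respiratory chain genes were mostly higher after 10 days of medium, by small amounts. Of the 69 tested, 59 lay above day 0, with a median change of 0.11, while the median of all features was -0.06 and 41.7% of them lay above 0. With the filed batches 14 were higher and 1 lower, against 11.4% of all features higher and 17.8% lower. The tabulated batches gave 6 higher and 0 lower, against 5.89 and 7.94%. Adding the tabulated batch as a block gave 4 and 0, shares of the 69 that lie under the 7.43 and 8.90% of all features. The 6 that passed both ways, 8.7% of those tested against 5.75% of all features, were Cox7a1, Cox4i2, Ndufb2, Cox6c, Sdhaf3 and Ndufs4. None fell, against 7.72%. Ndufs4 and Sdhaf3 did not pass under that block (adjusted p = 0.0564 and 0.0506). Without the 4 assembly factors the counts were 13 higher and 1 lower of 65. Leaving out any batch of day 0 or day 10, or batch 2 of day 22, left 4 to 9 higher.

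By day 22 more of them had passed the threshold. Of the 69, 20 were higher and 4 lower than on day 0, against 17.1 and 27.3% of all features. The tabulated batches gave 18 and 0, against 13.0 and 19.2%, and their block gave 14 and 1, against 13.6 and 20.5%. In all 17 rose both ways, 24.6% of those tested, against 12.6% of all features, and 0 fell, against 18.6%. Fitted to the authors' processed values, the counts were 19 higher and 1 lower. The median change was 0.13, against -0.08 over all features, and 51 lay above 0. The 6 genes that had risen by day 10 were among the 17, and both comparisons share the day 0 arrays. Only 3 of the 17 rose by more than 0.5, namely Cox7a1, Cox6a2 and Cox4i2, all of them isoforms of complex IV. Without batch 1 or 3 of day 0 or batch 1 of day 22 the lower count was 1, and without batch 2 of day 22 it was 2.

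From day 10 to day 22 no gene of the chain passed the threshold. In limma the counts were 0 higher and 0 lower with the filed batches, where 4.21 and 5.44% of all features passed. They were also 0 and 0 with the tabulated batches (0.525 and 1.48% of all features), with their block (1.39 and 1.75%) and both ways (0.490 and 1.45%). At an unadjusted p under 0.05 and the filed batches there was 1 higher and 1 lower. Quantile normalization gave 1 higher, and slide as a block gave 1 higher and 3 lower. The changes ran from -0.40 to 0.40 with a median of -0.00, and the lowest adjusted p was 0.0761, for Uqcrb (0.24 ± 0.07). A change that misses the threshold here does not show that levels stayed the same, since the median standard error was 0.081.

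**Figure D1:**
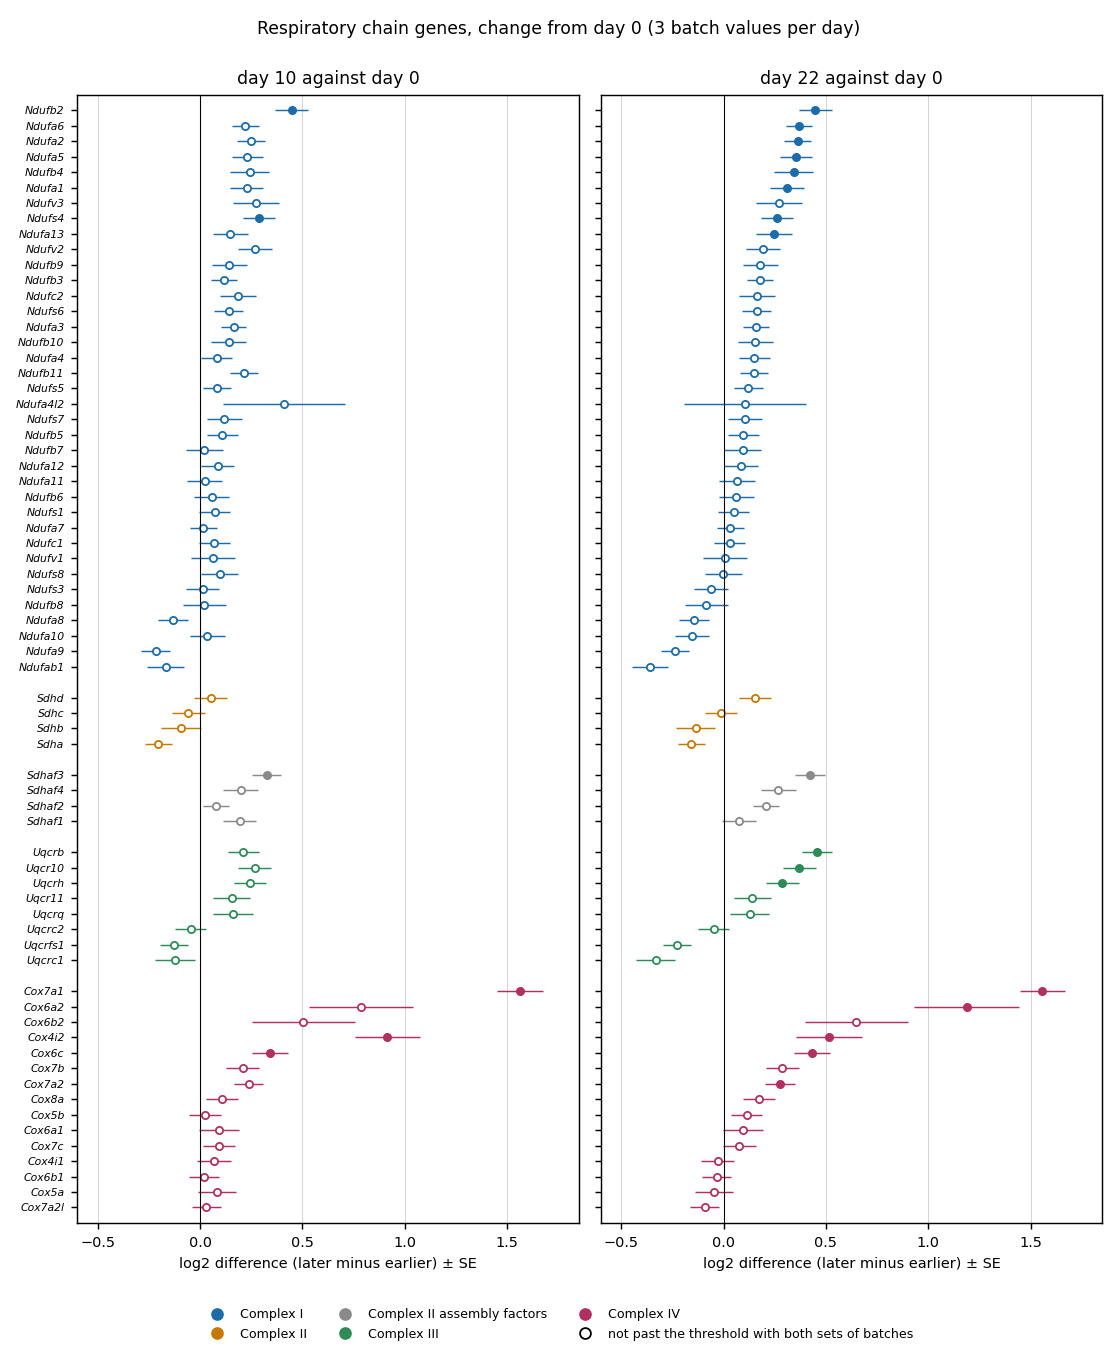
Change of 68 of the 69 tested genes from day 0 to day 10 (left) and to day 22 (right), as log2 differences with their standard errors (3 batch values per day), grouped by complex and ordered by the change at day 22. Filled points passed the threshold with both sets of batches, 6 at day 10 and 17 at day 22, and Cox7a1 stands farthest to the right in both panels.

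Complex I, which oxidizes NADH, was split by role. Its 7 nuclear core subunits, which carry the flavin, the iron-sulfur clusters and the quinone site, had a median change of 0.07 by day 10 and 0.01 by day 22. None of them rose, against 5.75 and 12.6% of all features by days 10 and 22, and none fell, against 7.72 and 18.6%. With so few genes, this is not read as a difference from all features. Among these 7, Ndufv2, which holds an iron-sulfur cluster, was higher by day 10 with the filed batches alone (0.27 ± 0.08, adjusted p = 0.0428, tabulated 0.0979), and not without any batch of day 0 or day 10 or batch 2 of day 22 (0.0599 to 0.112). Its levels ran from 4.91 to 5.18 on day 0 (median 5.05), from 5.21 to 5.40 on day 10 (5.32) and from 5.01 to 5.41 on day 22 (5.28). All arrays of day 10 lay above those of day 0, and those of day 22 overlapped both.

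The 31 accessory subunits, which surround the core and are needed for its assembly and stability, had medians of 0.14 and 0.15. Of these, 28 lay above day 0 on day 10 and 26 on day 22. By day 10 2 had risen (6.45%, against 5.75% of all features) and by day 22 8 had (25.8%, against 12.6%). None fell both ways, against 7.72 and 18.6% of all features. The 8 were Ndufb2, Ndufa6, Ndufa2, Ndufa5, Ndufb4, Ndufa1, Ndufs4 and Ndufa13, with rises of 0.25 to 0.45. All of them but Ndufb2 and Ndufa6 missed the threshold by day 22 when some tabulated batch was left out. Whether core and accessory subunits differ was not tested.

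Ndufb2, an accessory subunit of the membrane arm, rose most in complex I. Its levels were 3.99 to 4.15 on day 0 (median 4.10), 4.43 to 4.70 on day 10 (4.47) and 4.29 to 4.84 on day 22 (4.52). Every array of day 10 and of day 22 lay above every array of day 0. The change was 0.45 ± 0.08 by day 10 (adjusted p = 0.0048) and 0.45 ± 0.08 by day 22 (0.00246), and it passed without each of the 9 filed batches in turn. By day 10 it did not pass without tabulated batch 3 of day 10 (0.0595). Ndufs4, an accessory subunit of the matrix arm whose loss causes Leigh syndrome, ranged from 3.97 to 4.17 on day 0 (median 3.99), 4.18 to 4.38 on day 10 (4.31) and 4.08 to 4.59 on day 22 (4.24). The arrays of day 10 lay above those of day 0 without overlap, and those of day 22 overlapped them. It rose by 0.29 ± 0.08 by day 10 (adjusted p = 0.0266) and by 0.26 ± 0.08 by day 22 (0.0278). Without batch 2 or 3 of day 0 or any batch of day 10 the first had adjusted p of 0.0617 to 0.0919, and without batch 2 or 3 of day 0 or batch 3 of day 22 the second had 0.0710 to 0.0766. Among tabulated batches, the first was lost without batch 2 or 3 of day 0 or day 22 or any of day 10 (0.0632 to 0.152). The second was lost without tabulated batch 2 or 3 of day 0 or any of day 10 or 22 (0.0522 to 0.104).

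Ndufa6, an accessory subunit with the LYR motif that binds the acyl carrier protein, had levels of 4.35 to 4.54 on day 0 (median 4.38), 4.57 to 4.69 on day 10 (4.61) and 4.55 to 4.92 on day 22 (4.78). The arrays of both later days lay above all of day 0. It rose by 0.37 ± 0.07 by day 22 (adjusted p = 0.0024). Its promoter is the one above with the NRF1 core. Ndufa13, also known as GRIM-19, rose by 0.25 ± 0.09 by day 22 (adjusted p = 0.0466), and not under the tabulated block (0.0676). It passed only without batch 3 of day 0 or batch 1 of day 22 among the 9 filed batches left out in turn, with adjusted p of 0.0645 to 0.135 in the other fits. Leaving out any tabulated batch ended the call too (0.0547 to 0.11). Ndufb4 (0.34 ± 0.10, adjusted p = 0.0193) did not pass without batch 1 or 2 of day 0 (0.0551 and 0.0571).

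Some accessory subunits pointed the other way, without passing both ways. Ndufab1, the mitochondrial acyl carrier protein, which also serves lipoic acid synthesis, ran from -0.26 to 0.18 on day 0 (median -0.01), from -0.37 to -0.09 on day 10 (-0.18) and from -0.73 to 0.08 on day 22 (-0.35). The days overlapped. Its change by day 22 was -0.36 ± 0.09 (adjusted p = 0.0119, tabulated 0.0875). Ndufa9, which sits near the quinone site, ran from 3.62 to 3.72 on day 0 (median 3.66), from 3.39 to 3.51 on day 10 (3.44) and from 3.22 to 3.61 on day 22 (3.44). Both later days lay below day 0 on all arrays, with changes of -0.22 ± 0.07 (adjusted p = 0.0501, tabulated 0.103) and -0.24 ± 0.07 (0.0254, tabulated 0.0513). The second did not pass without any batch of day 0 or batch 1 of day 22 (0.0514 to 0.0633).

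Complex II, which is also succinate dehydrogenase of the citric acid cycle, has 4 subunits, all of them nuclear. None rose, against 5.75 and 12.6% of all features by days 10 and 22, and none fell, against 7.72 and 18.6%. Sdha, the flavoprotein, ran from 4.39 to 4.55 on day 0 (median 4.42), from 4.13 to 4.32 on day 10 (4.25) and from 4.22 to 4.35 on day 22 (4.32). Every array of the later days lay below those of day 0. The changes were -0.20 ± 0.06 by day 10 (adjusted p = 0.0467, tabulated 0.107, and 0.0684 with the filed batch as a block) and -0.16 ± 0.06 by day 22 (0.0826). Leaving out any batch but batch 1 of day 22 ended the day 10 call (0.0541 to 0.139).

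The iron-sulfur subunit Sdhb differed by -0.09 ± 0.10 by day 10 and -0.14 ± 0.10 by day 22. The membrane anchors Sdhc (-0.06 ± 0.08 and -0.01 ± 0.08) and Sdhd (0.05 ± 0.08 and 0.15 ± 0.08) did not pass either. The levels of these 3 genes overlapped between days. The 4 assembly factors lay above 0 by both days. Sdhaf3, which helps to insert iron-sulfur clusters into Sdhb, ran from -1.67 to -1.35 on day 0 (median -1.41), from -1.24 to -1.06 on day 10 (-1.13) and from -1.17 to -0.87 on day 22 (-1.04). The days after the start lay above day 0 on all arrays, and it rose by 0.33 ± 0.07 by day 10 (adjusted p = 0.0119) and 0.42 ± 0.07 by day 22 (0.00203). The day 10 call was lost without any tabulated batch of day 0 or day 10 or batch 2 or 3 of day 22 (0.0524 to 0.133). Sdhaf2, which attaches the flavin to Sdha (0.21 ± 0.06, adjusted p = 0.0291), and Sdhaf4, which binds Sdha after that step (0.27 ± 0.08, 0.0324), were higher by day 22 with the filed batches alone (tabulated 0.139 and 0.120). Sdhaf2 did not pass without batch 2 or 3 of day 0 or batch 1 or 2 of day 22 (0.0546 to 0.0867), and Sdhaf4 passed only without batch 2 of day 0 or batch 3 of day 22. Sdhaf1, which serves the same step as Sdhaf3, differed by 0.19 ± 0.08 and 0.07 ± 0.08.

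In complex III, which passes electrons from ubiquinol to cytochrome c, 3 of the 8 tested genes had risen by day 22 (37.5%, against 12.6% of all features) and 0 had fallen, against 18.6%. Uqcrb, Uqcr10, Uqcrh, Uqcr11 and Uqcrq had changes above 0 by both days. Those of the core proteins Uqcrc1 and Uqcrc2 and the Rieske iron-sulfur protein Uqcrfs1 were below 0, without passing both ways, and the 8 were sorted so after their values were seen. Uqcrb, which lies by cytochrome b and its quinone site, ran from 4.93 to 5.13 on day 0 (median 5.01), from 5.12 to 5.42 on day 10 (5.18) and from 5.09 to 5.65 on day 22 (5.51). A single array of day 22, at 5.09, reached into the range of day 0, and the other 5 lay above it. It rose by 0.46 ± 0.07 by day 22 (adjusted p = 0.00158), and its 3 probes gave 0.41 to 0.49.

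Uqcr10 ran from 5.04 to 5.41 on day 0 (median 5.25) and from 5.31 to 5.80 on day 22 (5.62), with some overlap, and rose by 0.37 ± 0.08 (adjusted p = 0.00637), with 0.33 to 0.37 on its 3 probes. Without tabulated batch 1 or 2 of day 22 it did not pass (0.0514 and 0.0525). Uqcrh, the hinge protein between cytochrome c1 and cytochrome c, ran from 6.47 to 6.55 on day 0 (median 6.52), from 6.62 to 6.93 on day 10 (6.73) and from 6.53 to 7.07 on day 22 (6.78). It rose by 0.29 ± 0.08 by day 22 (adjusted p = 0.0179), when the lowest array still touched the range of day 0. That call was lost without tabulated batch 2 or 3 of day 0 or any of day 22 (0.0598 to 0.0736). Uqcr11 differed by 0.16 ± 0.09 and 0.14 ± 0.09, and Uqcrq, the subunit that binds ubiquinone near cytochrome b, by 0.16 ± 0.10 and 0.13 ± 0.10.

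Uqcrc1, a core protein that faces the matrix, ran from 3.74 to 3.86 on day 0 (median 3.78), from 3.50 to 3.77 on day 10 (3.72) and from 3.21 to 3.67 on day 22 (3.51). All arrays of day 22 lay below those of day 0. Its change by day 22 was -0.33 ± 0.10 (adjusted p = 0.0230, tabulated 0.0679, and 0.0363 under the tabulated block). Uqcrfs1 was below day 0 on all arrays of day 22 too (-0.23 ± 0.07, 0.0268, tabulated 0.0526), and Uqcrc2 differed by -0.05 ± 0.08. Without batch 1 or 3 of day 0 or batch 1 or 2 of day 22 neither passed, with adjusted p of 0.0575 to 0.0813 for Uqcrc1 and 0.0640 to 0.0811 for Uqcrfs1. Cyc1, which encodes cytochrome c1 and lies outside the rule, differed by -0.29 ± 0.11 by day 22 (0.0717), and the mobile carrier Cycs by 0.23 ± 0.09 (0.0575).

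**Figure D2:**
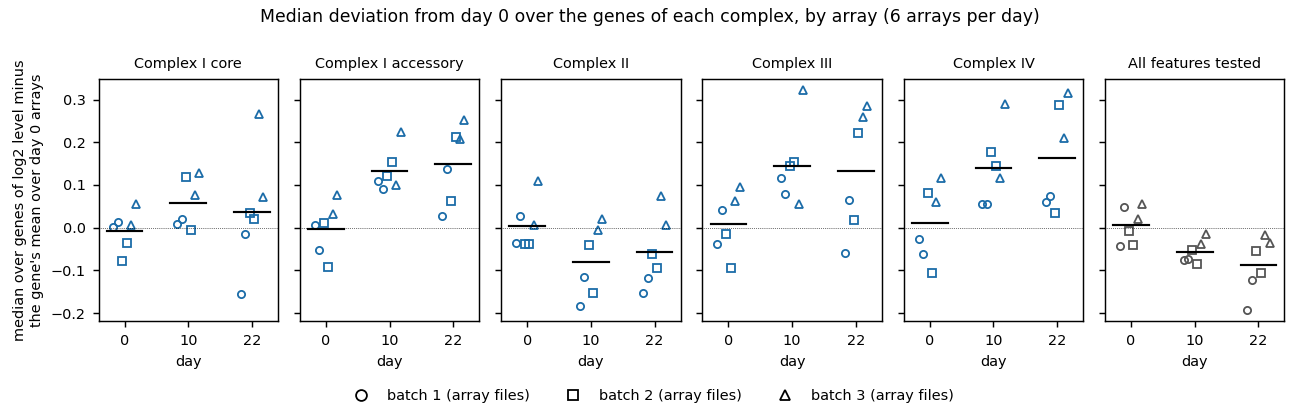
Median over the tested genes of each complex of the log2 level minus that gene's mean over the day 0 arrays, for the 6 arrays of each day, with the filed batch by symbol and the mean of the arrays as a bar. On day 10 the accessory subunits of complex I lie between 0.09 and 0.22, above all day 0 arrays, while the median of all features lies below 0 on every array of days 10 and 22.

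Complex IV, cytochrome c oxidase, held the largest changes of the chain. All 15 tested subunits lay above 0 by day 10 and 11 by day 22, and 3 and 5 had risen (20 and 33.3%, against 5.75 and 12.6% of all features). Cox7a1, the heart and skeletal muscle isoform of subunit 7a, rose most. Its levels were 0.63 to 1.31 on day 0 (median 0.91), 2.03 to 2.86 on day 10 (2.59) and 1.97 to 2.82 on day 22 (2.56). Every array after day 0 lay above every array of day 0, and days 10 and 22 overlapped. It rose by 1.56 ± 0.11 by day 10 (2.95-fold, adjusted p = 0.000201) and by 1.56 ± 0.11 by day 22 (2.94-fold, 3.49e-05), and differed by -0.01 ± 0.11 between them. It passed under all alternatives with more than 1 batch on each day, slide 2 alone (1.61 and 1.54) among them. On slide 1 alone the changes were 1.49 and 1.53, and day 22 there held only filed batch 1.

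Its widespread partner Cox7a2 moved far less. Levels were 4.75 to 5.02 on day 0 (median 4.89), 4.999 to 5.33 on day 10 (5.12) and 4.90 to 5.39 on day 22 (5.18). The days overlapped, and Cox7a2 rose by 0.28 ± 0.07 by day 22 (adjusted p = 0.0144, tabulated 0.0392, and 0.0516 under the tabulated block). By day 10 it differed by 0.24 ± 0.07 (0.0385, tabulated 0.0991), and it did not pass without any batch of day 0 or day 10 or batch 2 of day 22 (0.0503 to 0.126). The difference between the isoforms was not tested.

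Cox4i2, the isoform of subunit 4 known from lung and for its induction at low oxygen, also rose. Levels were -1.05 to -0.04 on day 0 (median -0.15), 0.28 to 0.90 on day 10 (0.65) and -0.26 to 0.37 on day 22 (0.32). All arrays of day 10 lay above day 0, and 5 of the 6 arrays of day 10 lay above all of day 22. The rise was 0.91 ± 0.16 by day 10 (adjusted p = 0.00445) and 0.52 ± 0.16 by day 22 (0.0297), and from day 10 to day 22 the change was -0.40 ± 0.16 (0.156). A low array on day 0 and another on day 22 stand apart. Without batch 1 of day 0, which holds the first, the change by day 22 was 0.34 (adjusted p = 0.0645), and without batch 2 or 3 of day 22 it was 0.48 (0.0883) and 0.47 (0.0770). Nor did that change pass without tabulated batch 2 of day 0, 3 of day 10 or 1 or 3 of day 22 (0.0522 to 0.0903). Cox4i1, the widespread partner, differed by 0.07 ± 0.08 and -0.03 ± 0.08.

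Cox6a2, the heart and skeletal muscle isoform of subunit 6a, was a dim probe here. Levels were -3.32 to -2.26 on day 0 (median -2.78), -3.18 to -1.25 on day 10 (-1.70) and -1.96 to -1.07 on day 22 (-1.58). Arrays of day 10 were split, with 2 of the 6 inside the range of day 0, and those of day 22 all lay above day 0. It rose by 1.19 ± 0.26 by day 22 (adjusted p = 0.0061, tabulated 0.0408, and 0.0562 under the tabulated block), and passed in 3 of 9 fits that each left out a tabulated batch. By day 10 it differed by 0.79 ± 0.26 (0.0497, tabulated 0.186). Leaving out any filed batch but batch 2 of day 10 ended that call, with changes of 0.49 to 0.91. Cox6a1, its widespread partner, differed by 0.09 ± 0.10 on both days.

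Cox6c, a small subunit with no isoform in the rule's genes, rose by 0.34 ± 0.09 by day 10 (adjusted p = 0.0207) and 0.43 ± 0.09 by day 22 (0.00481). Its levels were 5.90 to 6.15 on day 0 (median 6.05), 6.27 to 6.62 on day 10 (6.32) and 6.15 to 6.75 on day 22 (6.45), so that day 10 lay above day 0 on all arrays. The day 10 call was lost without batch 1 or 2 of day 0 or batch 2 or 3 of day 10 (0.0565 to 0.0738). It was also lost without tabulated batch 2 or 3 of day 0, any of day 10 or batch 3 of day 22 (0.0534 to 0.13). Cox7b was higher by day 22 with the filed batches (0.29 ± 0.08, adjusted p = 0.0205, tabulated 0.0534), and not without batch 1 of day 0 or batch 1 or 3 of day 22 (0.0513 to 0.0669).

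Of the other isoforms, Cox6b2, known from testis, differed by 0.51 ± 0.25 and 0.65 ± 0.25 (adjusted p = 0.168 and 0.0651), with levels of -0.08 to 1.07 on day 0, 0.84 to 1.33 on day 10 and 0.55 to 2.27 on day 22. With the filed batch as a block the second passed (0.0352). Ndufa4l2, a paralog of Ndufa4 that is induced in hypoxia, spread from 0.40 to 2.16 on day 0, 1.71 to 2.69 on day 10 and 0.40 to 2.31 on day 22. Its changes were 0.41 ± 0.30 and 0.11 ± 0.30 (adjusted p = 0.344 and 0.803).

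The widespread partners Cox6b1 (0.02 ± 0.07 and -0.03 ± 0.07), Ndufa4 (0.08 ± 0.08 and 0.15 ± 0.08) and Cox8a (0.11 ± 0.08 and 0.17 ± 0.08) did not pass. Ndufa4 counts here under complex I by its symbol, although its protein is now assigned to complex IV. Cox7b2 and Cox8c, known from testis, were not well above background on any array, and the muscle isoform Cox8b was on 1, 3 and 2 of the 6 arrays of days 0, 10 and 22, so none of the 3 was tested. Cox7a2l, known as a factor that can join complexes III and IV into supercomplexes, differed by 0.03 ± 0.07 and -0.09 ± 0.07. Whether its protein does so in this strain was not measured. The other subunits of complex IV, Cox5a, Cox5b and Cox7c, differed by 0.02 to 0.09 by day 10 and -0.05 to 0.11 by day 22.

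**Figure D3:**
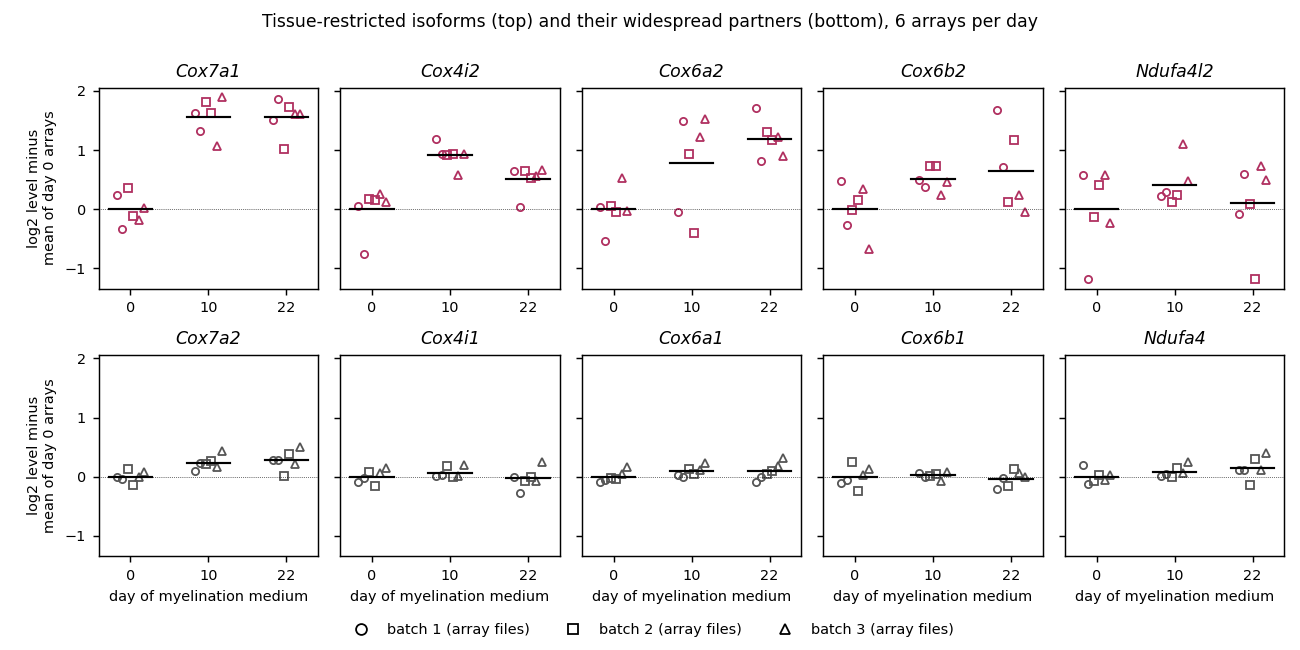
Log2 level minus the mean of the day 0 arrays for 5 tissue-restricted or hypoxia-induced isoforms (top) and their widespread partners (bottom), for the 6 arrays of days 0, 10 and 22, with the filed batch by symbol and the mean of the arrays as a bar. Cox7a1 sits about 1.56 above day 0 on both later days, Cox6a2 and Ndufa4l2 spread widely, and the partners stay within 0.5 of day 0.

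Markers of other cells moved beside these isoforms, and their part in the result was not tested. Of 10 skeletal muscle markers 3 were tested, and the troponin Tnnc1 rose by both days (1.01 ± 0.11 and 1.24 ± 0.11). The myosin light chain Myl1 passed by both days too, but it met the filter only through day 22, where it is high. Its calls are therefore not read as a result. Nor is the share that includes it, 66.7% of the 3 against 5.75 and 12.6% of all features by days 10 and 22. Myl1 was not well above background on any array of day 0, on 3 of the 6 of day 10 and on all 6 of day 22, so its change has only a bound. With day 0 set on each array to the lowest signal well above background, or the probe's own if higher, the rise of Myl1 by day 22 was at least 2.46-fold. The summed linear level of the list, divided by each array's 75th percentile, was 0.205 to 0.712 on day 0 (median 0.374), 0.312 to 0.609 on day 10 (0.452) and 0.351 to 1.89 on day 22 (0.784). Its defining genes Ckm, Des, Myh3, Myod1 and Myog were not well above background on any array. For pericytes and vascular smooth muscle, 6 of 9 markers were tested, and 1 of them rose by both days, the receptor Pdgfrb (0.55 ± 0.17 and 0.77 ± 0.17, the first not under the tabulated block, adjusted p = 0.0582). This 1 is 16.7% of the 6, against 5.75 and 12.6% of all features by days 10 and 22. None of the 6 fell both ways, against 7.72 and 18.6%. Below 0 by both days lay 2, Notch3 and Higd1b, and the medians were 0.10 and 0.64. That list's sum was 7.75 to 28.4 on day 0, 12.4 to 21.0 on day 10 and 13.0 to 66.2 on day 22, and Kcnj8 was not well above background on any array of days 0 and 10.

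Markers of other cell types differed between the days too. By day 22, 8 of 10 macrophage markers had risen (80%, against 12.6% of all features), and their summed level was between 62.5 and 83.2 on day 0 and between 114 and 352 on day 22. All 5 markers of cycling cells fell by day 22 (100%, against 18.6% of all features), with sums of 37.0 to 48.0 on day 0 and 2.20 to 6.84 on day 22. Of 15 neuronal markers 0 rose and 3 fell, with sums of 328 to 599 and 309 to 587. The neuronal falls are 20%, near the 18.6% of all features. Of 10 Schwann cell markers 2 rose and 1 fell (20 and 10%, against 12.6 and 18.6%), with sums of 465 to 597 and 440 to 762. Their part in the changes of the chain was not tested.

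In all, 15 genes had several probes, and the probes of some genes took opposite signs. The 2 probes of Ndufb11 did so, with 0.21 and 0.15 by days 10 and 22 on the brighter probe and -0.12 and -0.21 on the dimmer. Those of Ndufv3 gave 0.27 and -0.02 by day 22, and in Cox7a2l, Cox7c, Ndufb6, Sdhc and Uqcrh probes took opposite signs in some comparison of days. The dimmer probe of Ndufb4 gave changes of 1.93 and 1.98, but a single array of day 0 read -5.11 there, against 4.52 to 4.76 on the other 5. Between medians of arrays the change by day 22 was 0.39 on the brighter probe, which was used, and 0.35 on the dimmer.

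The other lists of mitochondrial genes were read beside the chain. ATP synthase makes ATP from the proton gradient. Of its 18 tested genes 4 rose and 1 fell by day 22 (22.2 and 5.56%, against 12.6 and 18.6% of all features), with a median of 0.11. The small subunits Atp5e (0.30 ± 0.09), Atp5k (0.31 ± 0.09), Atp5l (0.31 ± 0.07) and Atp5md (0.28 ± 0.10) rose, and Atp5a1, the alpha subunit of the catalytic head, fell by 0.29 ± 0.07. Under the tabulated block Atp5e, Atp5l and Atp5md did not pass (0.0513, 0.0621 and 0.0556).

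Of 41 assembly factors, whose list excludes the Sdhaf genes, 4 rose and 3 fell by day 22 (9.76 and 7.32%, against 12.6 and 18.6% of all features), with a median of -0.02. The complex I factor Tmem126b (0.38 ± 0.07), the complex III factor Uqcc2 (0.37 ± 0.09) and the complex IV factors Surf1 (0.35 ± 0.08) and Cox16 (0.22 ± 0.07) rose. Tmem186 fell by 0.42 ± 0.10, Coa7 fell by 0.35 ± 0.10 and Cmc2 fell by 0.30 ± 0.07. Cox16 and Cmc2 did not pass under the tabulated block (adjusted p = 0.0723 and 0.0623).

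Most regulators of mitochondrial biogenesis lay below day 0 by day 22, as did most of all features. Of 14 tested, 1 rose and 5 fell by day 22 (7.14 and 35.7%, against 12.6 and 18.6% of all features). Above 0 lay 3 and below it 11, while 41.4% of all features lay above 0. The median was -0.23, against -0.08 over all features. Pprc1, a coactivator of the PGC-1 family, fell by 0.84 ± 0.12, and Gabpb1, a subunit of the GABP factor, fell by 0.71 ± 0.08. Myc, a growth regulator that also drives mitochondrial genes, fell by 0.66 ± 0.12. Nrf1, whose motif was searched above, fell by 0.47 ± 0.09, and Gabpa, the DNA-binding subunit of GABP, fell by 0.38 ± 0.09. Esrra, an orphan nuclear receptor that works with PGC-1 coactivators, rose by 0.42 ± 0.07. Those 6 also passed under the tabulated block (adjusted p = 0.00706 to 0.0431). The coactivator Ppargc1a (0.17 ± 0.22) and the mitochondrial transcription factor Tfam (-0.29 ± 0.10, adjusted p = 0.0527) did not pass. By day 10, Gabpb1 and Myc had fallen (14.3%, against 7.72% of all features) and none of the 14 had risen, against 5.75%.

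**Figure D4:**
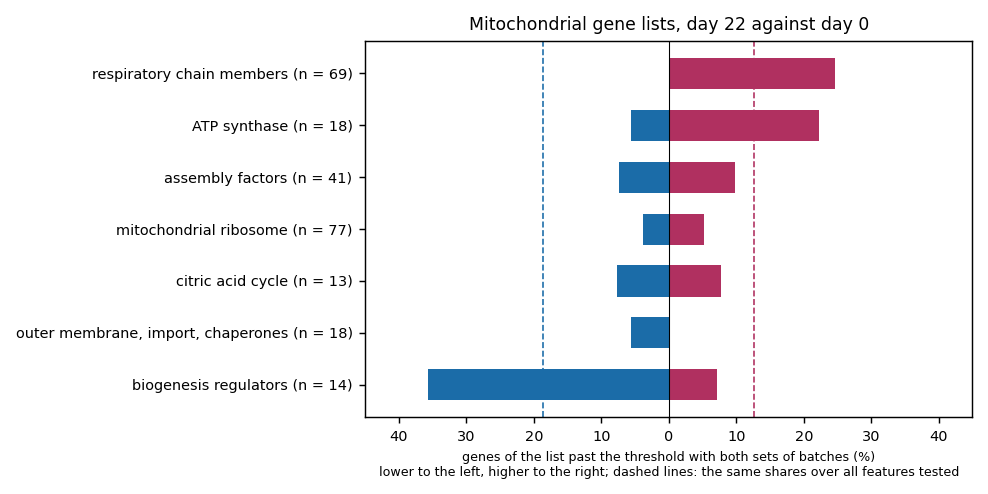
Share of the tested genes of each mitochondrial list that rose (right) or fell (left) from day 0 to day 22 with both sets of batches, with the number tested, and the same shares of all features as dashed lines at 12.6 and 18.6%. Respiratory chain genes reach 24.6% on the right with 0 on the left, and regulators of biogenesis 35.7% on the left.

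The citric acid cycle had 1 of 13 higher and 1 lower both ways by day 22 (7.69% each, against 12.6 and 18.6% of all features), namely Ogdh, a subunit of the 2-oxoglutarate dehydrogenase complex (0.59 ± 0.10), and Cs, citrate synthase, which fell by 0.32 ± 0.09. Of 18 genes of the outer membrane, protein import and chaperones none rose and 1 fell, the adenine nucleotide carrier Slc25a4 (-0.31 ± 0.08). Of 77 mitochondrial ribosomal proteins 4 rose and 3 fell (5.19 and 3.90%), with a median of 0.02. In hypoxia and glycolysis 3 of 20 rose by day 10 (15%, against 5.75% of all features), the phosphofructokinase Pfkp (0.64 ± 0.15), the peptide hormone Adm (1.08 ± 0.16) and the mitophagy receptor Bnip3 (0.72 ± 0.12), and 0 fell. By day 22 the share that rose was 15% too, near the 12.6% of all features. From day 10 to day 22, 4 of the 20 lay above 0, against 45.9% of all features.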

How the data were processed

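RNA of 18 samples was measured on Agilent one-colour arrays. Per the file headers, the authors extracted each spot's intensity, background subtracted and detrended, with Agilent Feature Extraction (version 10.7.1 per the submitters' processing notes), and deposited flags of 0 and 1 for spots well above background, saturated or outlying. A table with their processed intensity per probe, linear in scale, was also deposited, and how it was made was not stated.

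Levels were log2 of the deposited processed signal, less the array's own 75th percentile, after control and outlier spots were dropped. Probes carry accessions in place of gene names. Stripped of versions, these were looked up in the RefSeq table of GRCm38.p6, and 26576 of 55681 probes matched 20141 symbols. A probe was kept if all 6 arrays of some day flagged it well above background, which left 30431, and the brightest stood for its gene. The 2 arrays of each batch were averaged on each day and fitted with limma 3.58.1 in R 4.3.3, with the 3 days as groups. The fit was tested on simulated data. Figures were drawn with matplotlib from those results. Alternatives changed the scaling, the filter, the probe rule, the batches, the block and the arrays left out, and the normexp one used the median signal and median background (offset of 50).

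Sample titles number the replicates as mice, while the series' design text gives these numbers (M1 to M3) to batches of ganglia. Same-numbered samples of different days had deviations from the day means that correlated at -0.13 to 0.37, 6 of 9 above 0.1, in the filed batches, and at -0.08 to 0.46, 8 of 9, in the tabulated ones. Samples with different numbers correlated at -0.43 to 0.24, 4 of 18 above 0.1, in the filed batches, and at -0.46 to 0.17, 3 of 18, in the tabulated ones. The 2 arrays of a batch are technical, and their consensus correlation was -0.02 in the filed batches and 0.36 in the tabulated ones.

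Genes were named by a rule: the up to 8 largest changes in each direction past the threshold, all genes of complex II, the tissue isoforms and their partners, Cox7a2l, and genes whose probes disagree. The other genes of complex III, the other genes that passed both ways, the lists' called genes, Cyc1 and Cycs were named after their values were seen. The genes and lists were chosen with earlier results of these data known. The values of 1 tested gene are not reported here, although it is in the counts.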

Additional observations from a re-analysis of the deposited data

Results flagged for a closer look

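Of 150 sets of 6 arrays of a day that were tested with Dixon's rule, for named genes and for medians of complexes, 10 held an array that stood apart, and chance gives about 1 in 20. Cox4i2 had a low array on day 0 (-1.05, next -0.23) and another on day 22 (-0.26, next 0.23), both the second array of filed batch 1. On day 0 Ndufs4 had a high array (4.17, next 4.02), and so had Ndufa6 (4.54, next 4.40). On day 10, Ndufab1 had a low array (-0.37, next -0.19) and Ndufa4l2 a high one (2.69, next 2.07). On the same day the second array of batch 3 was high in the median deviation from day 0 of complex I (0.22, next 0.12) and of complex III (0.32, next 0.15). On day 22, Uqcrb had a low array (5.09, next 5.44) and Ndufv3 another (6.44, next 6.82). No explanation was tested for any of these.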

How the results depend on the processing

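Over all alternatives that gave a value, none reversed the direction of a called gene among those of the naming rule and the other genes of the chain that rose. The counts of genes higher or lower moved most. Shares of all features called are given above for the filed batches, the tabulated batches and their block. The other counts lack such a share and are not read as results about the chain. Scaling moves all features too, and by day 10 their median was -0.06 in the main fit and 0.02 with array median scaling. For day 10 against day 0, with 14 higher and 1 lower, the tabulated batches gave 6 and 0, with a replicate block as well 4 and 0, and a replicate block on the filed batches 12 and 0. Array median scaling gave 24 and 0, quantile normalization 22, normexp with quantile 23, the authors' values 8 and 0, no filter on dim probes 4 and 0, and slide as a block 24 and 2. Slide 1 alone gave 1 and 0, slide 2 alone 1 and 0, the first technical arrays 2 and 0, and the second 3 and 0. The 18 arrays with batch as a random block gave 2 lower, and 6 and 2 with the tabulated batches. The mean of probes and the filter on all arrays each gave 2 lower. Leaving out each filed batch gave 4 to 14 higher and 0 to 2 lower, and each tabulated batch 2 to 7, 5 among them, and 0.

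For day 22 against day 10, with 0 and 0, quantile normalization gave 1 higher, slide as a block 1 higher and 3 lower, and leaving out each batch 0 higher and 0 to 1 lower. For day 22 against day 0, with 20 and 4, the tabulated batches gave 18 and 0, with a replicate block as well 14 and 1, a replicate block on the filed batches 22 and 4, normexp with quantile 30, the authors' values 19 and 1, no filter 14 and 1, and slide as a block 30 and 8. The 18 arrays with batch as a random block gave 27 and 6. Slide 1 alone held only filed batch 1 of day 22, so its counts are left out here. Slide 2 alone gave 1 and 0, the first technical arrays 2 and 0, and the second 16 and 0. Leaving out each filed batch gave 15 to 19 higher and 1 to 4 lower, and each tabulated batch 8 to 14, 9 and 13 among them, and 0 to 1. Slides alone and single technical arrays have fewer arrays.

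The random block and leaving out tabulated batches were chosen after seeing the data. The lower call of Sdha by day 10 had adjusted p from 0.00396 to 0.485 over its alternatives. Most changes are below 0.5, with a median standard error of 0.081, and that of the dim probe of Cox6a2 was 0.26.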

Other observations

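By day 10, 12 of the 69 genes had every array above every array of day 0 and 2 had every array below, and by day 22 these numbers were 7 and 4. How often this held over all features is not given here, so these numbers are not read as a trait of the chain. The 2 genes below on day 10 were Sdha and Ndufa9, and on day 22 Uqcrc1 and Uqcrfs1 joined them. Changes under 0.25 in size were found for 57 of the 69 genes by day 10 and for 47 by day 22.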
